A study of Mus musculus with 4 samples.

Results

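The apelin system in the injured mouse kidney was examined through 5 genes, chosen by name for their place in it: the ligand genes Apela and Apln, the receptor gene Aplnr, and the genes of the ligand-cleaving proteases Furin and Mme. All 5 were found, once each, among the 54078 features of the expression table. The 4 libraries were made from kidneys at day 3 after bilateral ischemia-reperfusion (I/R), with both kidneys clamped for 30 min, and each held RNA pooled from 3 adult male mice. The 2 KO pools came from Apela flox/flox mice with Ksp-Cre, in which the Ksp-cadherin promoter drives Cre in renal tubular epithelial cells, and the 2 WT pools came from age-matched Apela flox/flox littermates without Cre, so floxed Apela alleles and I/R were shared by every pool. All pools were injured, so the change of these genes with I/R itself could not be measured here. The labels give the strain as C57BL/6 x 129S4/SvJae, and the study's methods give C57BL/6 for both mouse lines. The series text names adipose tissue as the RNA source while the labels name kidney. Uromodulin (Umod), made by the thick ascending limb, was at 788 to 1133 FPKM (fragment counts scaled by gene length and library size) in the 4 pools. The 7 adipose genes looked at summed to 1.56 and 0.448 FPKM in WT and 8.27 and 3.19 in KO, higher in both KO pools, and most of that was Cidec, a lipid droplet gene, with 41 and 9 reads in WT and 246 and 84 in KO. Among the others Plin1, which coats lipid droplets, had 4 and 1 reads in WT and 27 and 9 in KO, and the hormone gene Adipoq had 6 reads in KO replicate 2 and 0 elsewhere. Cfd had 2 and 1 reads and Retn 0 and 2 in WT, with 0 in KO, Lep had 1 read in replicate 2 of each genotype, and Ucp1, which defines brown fat, was at 0 in every pool. The part of adipose RNA in the differences between genotypes was not tested.

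Elabela (ELA), encoded by Apela, and apelin, encoded by Apln, are secreted peptides that act on the same G protein-coupled receptor, APJ, encoded by Aplnr. Both are made as precursors and trimmed at clusters of basic residues, the type of site that furin and its relatives, the proprotein convertases, recognise. Neprilysin, the product of Mme, is a zinc peptidase of cell surfaces that degrades many small peptides, apelin among them, and is abundant on the proximal tubule brush border and on podocytes. APJ is best known from endothelial cells, where its ligands are linked to vessel growth and vasodilation. In mouse kidney, the study localised APJ mainly to glomeruli and proximal tubules.

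The coding sequences of the ligands are shown because Apela is the gene deleted in the KO mice and because the basic clusters lie in them. Capitals mark runs of at least 2 adjacent codons for arginine or lysine, and the sequences were read 5′ to 3′ from GENCODE M21 transcripts (GRCm38). Apela lies on the minus strand, with coding parts at chr8:65036890-65036965 and chr8:65035669-65035754. Apln also lies on the minus strand, with coding parts at chrX:48034439-48034505 and chrX:48028302-48028465.
Apela: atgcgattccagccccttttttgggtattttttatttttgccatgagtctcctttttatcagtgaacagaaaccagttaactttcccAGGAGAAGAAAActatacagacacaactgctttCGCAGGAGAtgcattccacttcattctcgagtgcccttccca
Apln: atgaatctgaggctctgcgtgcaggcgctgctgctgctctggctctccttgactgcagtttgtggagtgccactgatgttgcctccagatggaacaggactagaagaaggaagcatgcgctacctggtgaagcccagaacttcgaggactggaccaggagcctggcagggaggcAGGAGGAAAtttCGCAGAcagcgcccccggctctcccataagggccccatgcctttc

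Apela encodes 54 codons, of which 11 are basic, with runs at codons 30 to 33 and 41 to 43. Apln encodes 77 codons, of which 13 are basic, with runs at codons 59 to 61 and 63 to 64. In both precursors the runs thus fall in the later part of the coding sequence. The table holds 1 value per gene and library, so it does not show on which exons the reads fell or whether a peptide was cut.

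In these injured kidneys the protease transcripts were the most abundant of the system and the receptor and ligand transcripts were scarce. FPKM is scaled by gene length, so levels of different genes can be set side by side. In the WT pools the mean FPKM was 32.3 ± 3.38 (SD, n = 2 pools) for Furin, 9.26 ± 0.276 for Mme, 4.92 ± 0.491 for Apela, 3.83 ± 0.531 for Apln and 3.19 ± 2.42 for Aplnr. Neighbours in this order did not overlap in their WT pools down to Apela and Apln, but the range of the Aplnr pools overlapped both ligands. In the KO pools the order was Furin at 40.0 ± 1.47, Mme at 6.50 ± 0.572, Apln at 5.46 ± 2.35, Aplnr at 0.922 ± 0.433 and Apela at 0.391 ± 0.205 (SD, n = 2 pools). There the Mme and Apln pools overlapped, and Apela, which had a higher mean than Apln and Aplnr in WT, was the lowest of the 5 in both KO pools. The scaling used 11542 bases for Mme and 9178 for Furin, whose longest annotated transcripts have 8039 and 5736 nt, so their levels are set low against a gene such as Apln, for which both lengths are 3149.

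**Figure D1:**
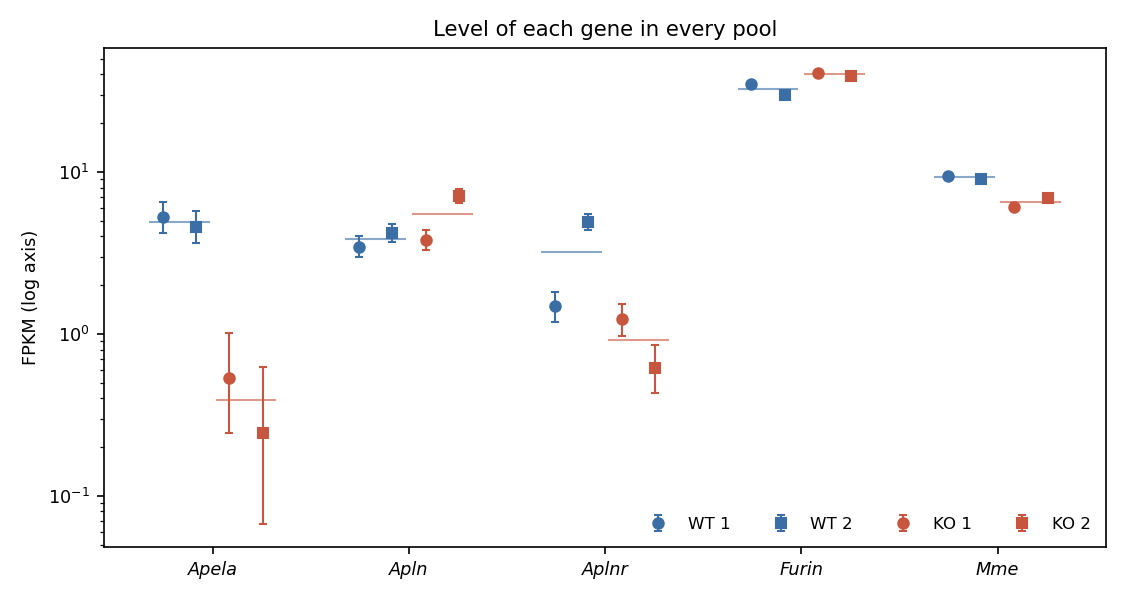
FPKM (log axis) of each gene in the 4 pools, WT in blue and KO in red, with circles for replicate 1, squares for replicate 2, horizontal lines for group means and bars for exact 95% Poisson intervals of the recovered reads. The Apela pools are far apart between genotypes, at 5.27 and 4.57 in WT against 0.536 and 0.245 in KO, while WT replicate 2 stands above the other 3 pools for Aplnr.

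The comparison of KO with WT asks whether the receptor, the other ligand or the processing enzymes differ where tubular Apela is deleted. Differences are given as log2 fold changes of FPKM + 0.5, KO against WT, which understate changes of low genes, with limma's standard error (SE). No member passed the adjusted threshold of 0.05 over the 15414 genes tested (limma, Benjamini-Hochberg), and 0 of all genes tested did (0%). With 2 pools per genotype, 0.333 is the smallest two-sided p that exact permutation allows. At an unadjusted p under 0.05 in limma, Apela and Mme were lower in KO, 2 of 5 members against a background of 3.03% of all genes tested, and 0 of 5 were higher against 3.29%. Both KO pools lay below both WT pools for 3 members, Apela, Aplnr and Mme, where 18.1% of all genes tested did, and above them for Furin alone, where 19.7% did. Apela is the gene deleted in KO, so its place in both counts was set by the design. Apart from it, Mme alone was lower at the unadjusted threshold, and Aplnr and Mme were lower without overlap.

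Apela, the targeted gene (ENSMUSG00000079042), spans 65028417 to 65037336 on chromosome 8 and encodes elabela. In WT replicates 1 and 2 its FPKM was 5.27 and 4.57, from 85 and 79 reads, against 0.536 and 0.245 in the KO replicates, from 9 and 4 reads. The gene was thus low in both pools labelled KO and in neither labelled WT, and some of its reads were found in every pool. Which exons are floxed is not given in the sources used here, so whether the reads left in KO come from outside them was not tested. The KO mean was 7.94% of the WT mean. The summed reads, 13 in KO and 164 in WT, give a KO-to-WT ratio with an exact 95% binomial interval of 4.17% to 14.1%, which covers counting error only. The counting intervals of the KO pools overlapped, at 0.245 to 1.02 FPKM in replicate 1 and 0.0669 to 0.628 in replicate 2. The log2 fold change was -2.62 (SE 0.22, 95% interval -3.21 to -2.03, unadjusted p = 0.000132, adjusted p = 0.466, limma, Benjamini-Hochberg). It was the 8th largest in size and had the 2nd smallest p of the 15414 genes, and with any 1 pool left out it lay from -2.86 to -2.38.

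Cdh16 encodes Ksp-cadherin, the gene whose promoter drives Cre. Its FPKM was 279 and 267 in WT and 262 and 243 in KO, and its log2 fold change was -0.11 (95% interval -0.53 to 0.30, adjusted p = 0.906, limma, Benjamini-Hochberg). Both KO pools lay below both WT pools by a small margin. Summed over 11 genes of the segments that express Ksp-cadherin, the FPKM was 1595 to 2134 in WT and 1820 to 2170 in KO, so the groups overlapped. Per 1000 FPKM of that sum, Apela stood at 2.47 and 2.87 in WT and at 0.247 and 0.135 in KO. In bulk RNA, fewer cells of a type and less RNA per cell cannot be told apart.

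Apln (ENSMUSG00000037010) spans 48025146 to 48034853 on the minus strand of chromosome X and encodes apelin, the ligand left intact in the KO mice. In WT replicates 1 and 2 its FPKM was 3.46 and 4.21, against 3.80 and 7.12 in the KO replicates, and the 4 values rest on 175, 228, 200 and 364 reads. KO replicate 2 stood apart from the other 3 pools, and KO replicate 1 lay within the WT range. The KO pools differed beyond counting error, with intervals of 3.29 to 4.36 and 6.41 to 7.89, and 5.27% of the genes tested differed more between these pools. Its log2 fold change was 0.41 (SE 0.31, 95% interval -0.40 to 1.21, unadjusted p = 0.245, adjusted p = 0.833, limma, Benjamini-Hochberg). Leaving out KO replicate 1 gave 0.82 and leaving out KO replicate 2 gave -0.0067, so the positive value rested on that pool.

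Summed per pool, the ligand transcripts came to 8.73 and 8.78 FPKM in WT and 4.33 and 7.36 in KO. Both KO sums lay below both WT sums, and the gap between the KO sums was in Apln, the higher ligand of replicate 2. Apela made up 60.4% and 52.1% of the sum in WT but 12.4% and 3.33% in KO. The ligand transcript was thus mostly Apela in WT replicate 1 and mostly Apln in the KO pools. In WT replicate 2 the counting intervals of Apela and Apln overlapped, at 3.62 to 5.70 and 3.68 to 4.79 FPKM, so neither led beyond counting error.

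**Figure D2:**
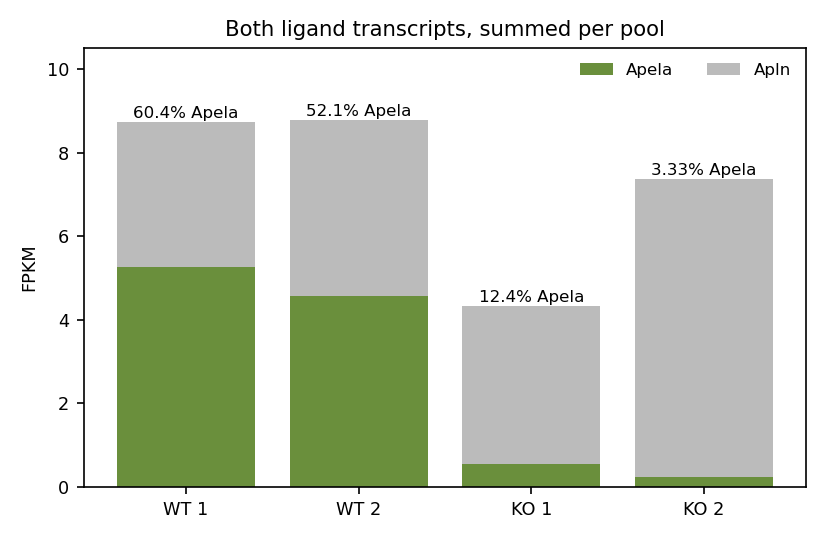
FPKM of Apela (green) and Apln (grey) stacked for each pool, with the Apela share of the sum above each bar. Apela is the larger share of the bar in WT replicates 1 and 2 (60.4% and 52.1%) and a thin base in KO replicates 1 and 2 (12.4% and 3.33%).

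Aplnr (ENSMUSG00000044338) spans 85136225 to 85139923 on the plus strand of chromosome 2 and encodes APJ, the receptor of both ligands. In WT replicates 1 and 2 its FPKM was 1.48 and 4.90, against 1.23 and 0.616 in the KO replicates, and the 4 values rest on 88, 312, 76 and 37 reads. WT replicate 2 was far above the rest, and WT replicate 1 lay only just above KO replicate 1, with overlapping counting intervals of 1.19 to 1.82 and 0.968 to 1.54. The WT pools differed 3.31-fold, and 1.51% of the genes tested had a larger difference between them. The log2 fold change was -1.24 (SE 0.54, 95% interval -2.66 to 0.19, unadjusted p = 0.0755, adjusted p = 0.797, limma, Benjamini-Hochberg). Leaving out WT replicate 2 gave -0.51, and leaving out WT replicate 1 gave -1.96.

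Marker sums of 5 cell types were set beside Aplnr. The 15 endothelial genes, such as Pecam1 and Cdh5, summed to 236 and 271 FPKM in WT and 315 and 339 in KO, higher in both KO pools, and 2 of them were highest in WT replicate 2. Of the 14 tested, 7 were higher in both KO pools than in both WT pools and 1, Cldn5, was lower, where 19.7% and 18.1% of all genes tested were. The separation of the sum rested on Plvap, an endothelial diaphragm gene at 103 and 110 FPKM in WT and 161 and 152 in KO. Without it, an alternative chosen after seeing the data, the sums overlapped, at 133 and 161 in WT and 154 and 188 in KO. Per 1000 FPKM of the endothelial sum, Aplnr was 6.27 and 18.1 in WT and 3.90 and 1.81 in KO, without overlap, and without Plvap it was 11.1 and 30.4 in WT and 7.99 and 3.28 in KO, again without overlap. The 11 macrophage genes, such as Adgre1 and C1qa, summed to 185 and 460 in WT and 227 and 220 in KO, and 9 of them were highest in WT replicate 2, as was Aplnr. Per 1000 FPKM of the macrophage sum, Aplnr was 7.99 and 10.7 in WT and 5.40 and 2.80 in KO, also without overlap. Per 1000 FPKM of the podocyte sum it was 20.2 and 70.7 in WT and 15.7 and 7.27 in KO, without overlap, but per 1000 FPKM of the proximal tubule sum it was 0.426 and 1.81 in WT and 0.594 and 0.201 in KO, which overlapped. Of 8 fibroblast genes 7 were also highest in that pool, with sums of 142 and 281 in WT and 171 and 191 in KO. Every gene of these lists had reads in some pool, apart from a second identifier of Itgam that was at 0 in all of them, and the part of these cells in the Aplnr difference was not tested.

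**Figure D3:**
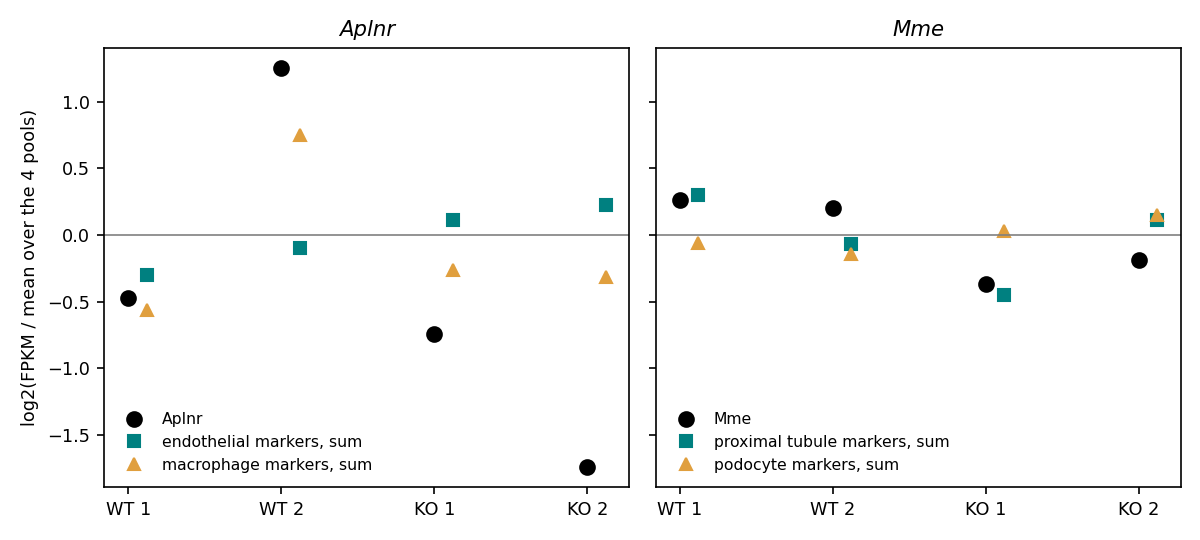
Aplnr (left) and Mme (right) as black circles in each pool beside summed markers of the cell types named in the keys, all as log2 of FPKM over the mean of the 4 pools. Aplnr and the macrophage sum peak in WT replicate 2 (4.90 and 460 FPKM), while the endothelial sum is highest in the KO pools (315 and 339), which rests on Plvap; Mme is lower in both KO pools, and the podocyte sum is not.

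Furin (ENSMUSG00000030530) spans 80388585 to 80405436 on the minus strand of chromosome 7 and encodes the convertase that cuts many precursors in the secretory pathway. In WT replicates 1 and 2 its FPKM was 34.7 and 29.9, against 41.1 and 39.0 in the KO replicates, from 4725 to 6304 reads per pool. Both KO pools lay above both WT pools, by a margin similar to the gap between the WT pools. The log2 fold change was 0.31 (SE 0.13, 95% interval -0.03 to 0.65, unadjusted p = 0.0677, adjusted p = 0.787, limma, Benjamini-Hochberg), and 0.23 after quantile normalization. The antisense gene Gm44851 overlaps the 5′ end of Furin, and no source used here states that reads were counted by strand, so reads in the overlap cannot be assigned to 1 of them. Gm44851 held 5 to 13 reads per pool.

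Mme (ENSMUSG00000027820) spans 63241537 to 63386030 on the plus strand of chromosome 3 and encodes neprilysin. In WT replicates 1 and 2 its FPKM was 9.46 and 9.07, against 6.10 and 6.90 in the KO replicates, and the 4 values rest on 1754, 1800, 1177 and 1294 reads. Within each genotype the pools lay close together, and the KO pools were below the WT pools by more than that spread. The KO mean was 70.2% of the WT mean. The log2 fold change was -0.48 (SE 0.12, 95% interval -0.80 to -0.17, unadjusted p = 0.0118, adjusted p = 0.746, limma, Benjamini-Hochberg), and with any 1 pool left out it lay from -0.57 to -0.40. Its unadjusted p was above 0.05 without WT replicate 1 or without KO replicate 1, at 0.0527 and 0.0702 in limma. The ratio of Furin to Mme was 3.67 and 3.30 in WT and 6.74 and 5.65 in KO, so the balance of both transcripts was shifted towards Furin in each KO pool.

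The cell types known for neprilysin differed in how their markers stood. The 19 proximal tubule genes, such as Lrp2 and Slc34a1, summed to 3476 and 2704 FPKM in WT and 2068 and 3067 in KO, with overlap, and had a median log2 fold change of -0.23 against 0.0071 over all genes tested. For 7 of the 19 both KO pools lay below both WT pools and for 2 above them, where 18.1% and 19.7% of all genes tested did, and 14 were lowest in KO replicate 1. Per 1000 FPKM of that sum, Mme was 2.72 and 3.35 in WT and 2.95 and 2.25 in KO, so the groups overlapped once set against it. Slc34a1, the most abundant of the 19, was at 898 and 689 FPKM in WT and 365 and 609 in KO. Miox was at 601 and 477 in WT and 211 and 463 in KO. With either gene left out of the sum, choices made after seeing the data, the groups no longer overlapped. WT replicate 1 then lay only just above KO replicate 1, so whether the groups overlap can turn on 1 gene of the sum. The 8 podocyte genes, such as Nphs1 and Podxl, summed to 73.3 and 69.3 in WT and 78.1 and 84.8 in KO. Per 1000 FPKM of the podocyte sum, Mme was 129 and 131 in WT and 78.1 and 81.5 in KO, without overlap. The part of either cell type in the Mme difference was not tested.

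**Figure D4:**
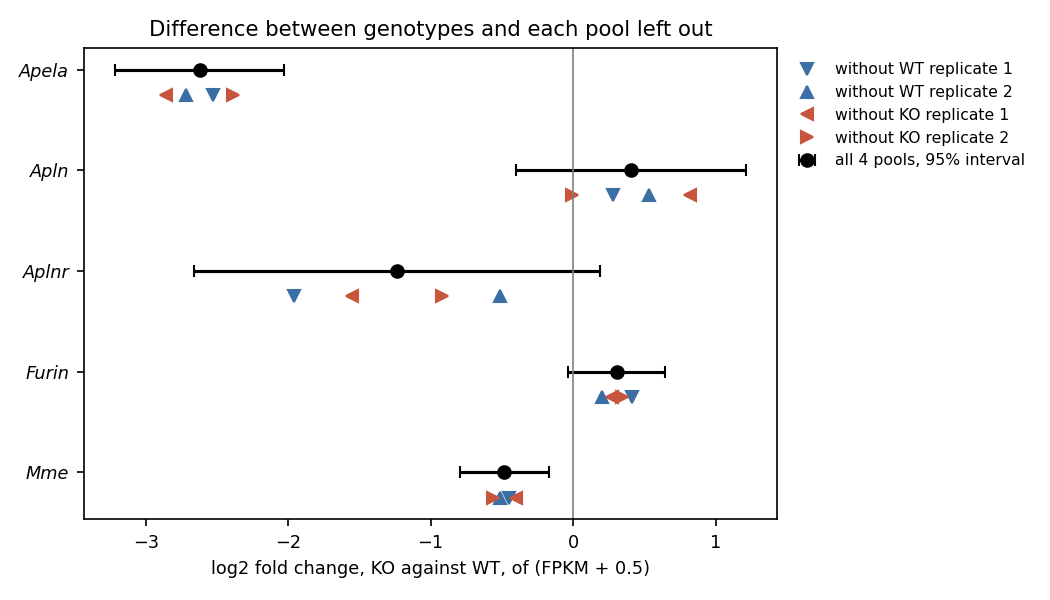
Log2 fold change of FPKM + 0.5, KO against WT, for each gene, with limma's 95% interval over all 4 pools (black) and the value with each pool left out (triangles, in the colour of the genotype left out). Apela lies between -2.86 and -2.38 whichever pool is left out, Aplnr between -1.96 and -0.51, and Apln crosses 0 without KO replicate 2.

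The relatives of both proteases and the signalling partners of APJ were read from lists taken by name. Of 8 other proprotein convertases 6 were tested, with a median log2 fold change of 0.0053, and 0 passed the adjusted threshold. Mbtps1 and Pcsk7, which cut precursors in the Golgi, and Pcsk4 had the highest levels among them. Mbtps1 was at 9.55 and 10.8 FPKM in WT and 8.75 and 8.05 in KO, Pcsk7 between 8.91 and 9.36 in all pools, and Pcsk4 at 5.11 and 2.63 in WT and 6.47 and 6.23 in KO. Pcsk1, a convertase of endocrine granules, was at 0 reads in all pools. Furin made up 48.6% and 44.6% of the FPKM of Furin and these 8 genes in WT and 53.5% and 54.1% in KO, so it was the leading convertase transcript in each pool.

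Among 9 other peptidases that act on apelin or belong to the neprilysin family, 3 were above the filter, and none of these differed at an unadjusted p under 0.05. Prcp, a carboxypeptidase, was at 15.4 and 12.4 FPKM in WT and 13.2 and 21.2 in KO, and Ece1, an endothelin-converting enzyme, at 14.5 and 15.1 in WT and 16.1 and 16.2 in KO. Their log2 fold changes were 0.27 and 0.12 (adjusted p = 0.862 and 0.852, limma, Benjamini-Hochberg). Mmel1, the closest relative of Mme in the list, was at 0 reads in all pools.

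All 11 genes of receptor coupling were tested, with a median log2 fold change of 0.08. Of these 9 were above 0, against 7917 of the 15414 genes tested, and for 5 of the 11 both KO pools lay above both WT pools, as for 19.7% of all genes tested. The inhibitory G protein subunits Gnai2 and Gnai3, through which APJ signals, were at 83.0 to 101 and 41.4 to 45.3 FPKM, and Gna11 was at 28.8 and 27.3 in WT and 34.1 and 32.3 in KO. The arrestin genes Arrb1 and Arrb2, which bind activated receptors, had log2 fold changes of -0.10 and -0.25. Nos3, the endothelial nitric oxide synthase, was the 1 gene of the 11 with an unadjusted p under 0.05, where 3.29% of all genes tested were higher at that level, at 1.88 and 2.63 FPKM in WT and 3.26 and 4.13 in KO (log2 fold change 0.61, adjusted p = 0.785, limma, Benjamini-Hochberg). It was higher in both KO pools, and the endothelial marker sum was so only with Plvap. The part of endothelial RNA in it was not tested.

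**Figure D5:**
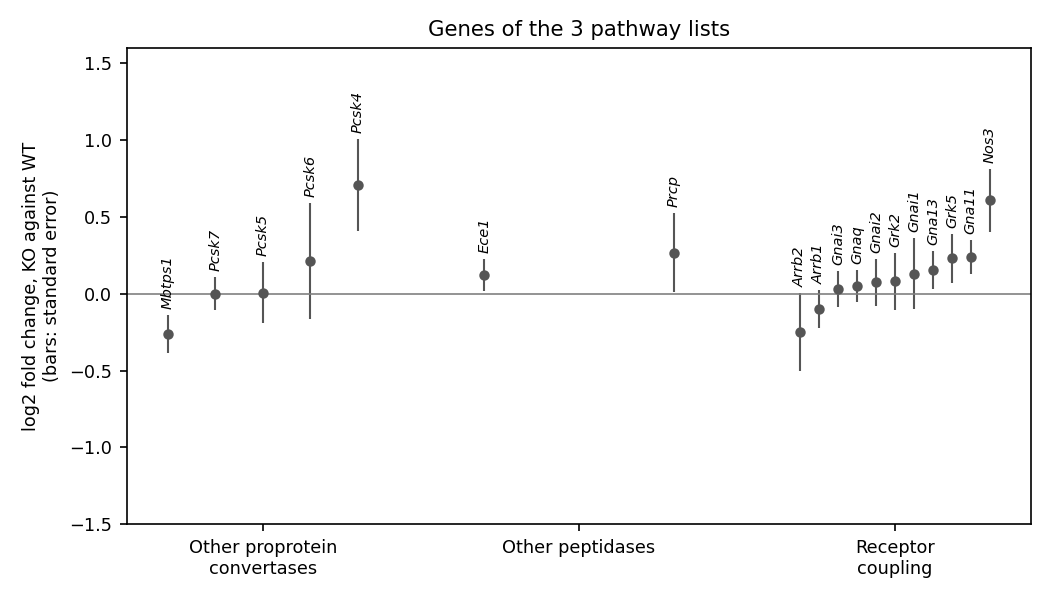
Log2 fold change of FPKM + 0.5, KO against WT, with its standard error for tested genes of the 3 lists (5 convertases, 2 other peptidases and 11 receptor coupling genes). Pcsk4 (0.71) and Nos3 (0.61) lie farthest from 0 among those drawn.

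The genes whose levels followed each member most closely were found as the smallest Euclidean distance between centred log2(FPKM + 0.5) profiles over the 4 pools, among 11653 protein-coding genes that averaged 1 FPKM or more. For Apela these were Tgtp1, Ubd and H2-Ab1, at distances of 0.485, 0.661 and 0.847, and Tgtp1 was at 3.92 and 4.41 FPKM in WT and 0.690 and 0.365 in KO. For Aplnr they were Phf11b, Ifi27l2a and Thy1, at distances of 0.147 to 0.223. Apln was nearest to S100a8, Ctgf and Tsc22d1, Furin to Trpm4, Tmem160 and Ssr4, and Mme to Tspyl4, Fgf1 and Fam46c. Within a distance of 0.5 there was 1 gene for Apela and 19 for Aplnr, against 429 for Apln, 3851 for Mme and 7485 for Furin, whose own profiles vary less.

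Around the deleted gene, 4 tested genes lay within 500 kb, all on the side of lower coordinates. The nearest, Tmem192, 59.4 kb away, had a log2 fold change of -0.02, Klhl2 had 0.08, Cpe -0.16 and Msmo1, a gene of cholesterol synthesis, -0.68. Msmo1 was at 5.82 and 7.17 FPKM in WT and 3.80 and 3.91 in KO (adjusted p = 0.690, limma, Benjamini-Hochberg). The nearest tested neighbours of Apln were Ocrl at -0.06 and Xpnpep2 at -0.78, that of Aplnr was Tnks1bp1 at 0.12, those of Furin were Fes at -0.35 and Blm at -0.10, and that of Mme was Plch1 at -0.09. Gm45886, a transcript that overlaps Apela on the same strand, was at 0 reads in every pool.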

How the data were processed

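A single FPKM value for each gene in each library, with the gene's position and length, was deposited by the authors. The submitters' processing notes name HISAT2 2.0.5 and GRCm38.p6 (mm10). The counting tool is not given in the sources used here. Positions of all 5 genes were identical in GENCODE M21. FPKM times gene length was a whole multiple of 1 step per library for 100% of nonzero values, within 0.01 of a read, which gave back 16045724 to 16927742 reads on genes per library. Replicates differed beyond sampling noise (chi-square per gene, 31.5 in WT and 24.5 in KO). From the deposited FPKM, log2(FPKM + 0.5) was compared with limma 3.58.1 in R 4.3.3 (eBayes with trend, two-sided) over the 15414 genes that averaged 0.5 FPKM or more, without covariates and with p-values adjusted by Benjamini-Hochberg. The recovered reads entered only the voom alternative, and p-values measure the spread between 2 pools per genotype. Poisson and binomial intervals are exact, at 95%, for counting error only. Python 3.11.15 with scipy 1.17.1 did the rest. The fit was tested on simulated data with 1 dispersion for all genes and changes planted only in genes more abundant than Apela, Apln and Aplnr. That test does not show how the fit performs for genes as low as these. The genes, lists and tests were chosen with earlier results of these data known. Named were the 5 genes, the 3 highest genes of each pathway list and any with an unadjusted p under 0.05, the 3 nearest profiles of each member and overlapping or nearest tested neighbours; further genes named were chosen after their values were seen. Some genes of the lists are not reported here. Pools share only replicate numbers, and other settings are given at the end.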

Additional observations from a re-analysis of the deposited data

How the results depend on the processing

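The count of genes past the adjusted threshold was 0 under every alternative run with limma (a pseudocount of 0.1 or of 1, all detected genes, only genes averaging 1 FPKM, quantile normalization, no trend, voom weights on recovered reads, the replicate block and each pool left out), and 687 to 1720 genes then had an unadjusted p under 0.05. Where the threshold was the unadjusted p it was 974. Of the 5 log2 fold changes, those of Apela, Aplnr, Furin and Mme kept their direction under all 12 alternatives, and that of Apln, which ranged from -0.0067 to 0.82 with a pool left out, was reversed without KO replicate 2. The cause was not tested. Voom weights gave -3.64 for Apela and -1.64 for Aplnr, where no pseudocount of 0.5 FPKM is added. Adjusted p-values (limma, Benjamini-Hochberg) ranged from 0.298 to 0.913 for Apela, 0.819 to 1.00 for Apln, 0.322 to 0.992 for Aplnr, 0.444 to 0.992 for Furin and 0.454 to 0.992 for Mme. With a pool left out, the lone pool was assumed to vary like the other group. No pairing of the pools is stated in the sources used here. Deviations of same-numbered pools had a correlation of -0.0017 across genes, which cannot settle whether such pools were handled together. With the replicate block 0 genes passed the threshold and 932 had an unadjusted p under 0.05 (limma). Depth limits Apela in the KO pools, where 3 reads are 0.179 and 0.184 FPKM.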

Other observations

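Untested genes next to Apela, below the filter on low values and chosen for their counts from the 25 genes within 500 kb, also differed between the genotypes in reads. Trim61, which begins 9.89 kb downstream of Apela on the same strand and encodes a tripartite motif protein, had 8 and 5 reads in the WT pools against 1 and 0 in the KO pools. Trim60, which overlaps Trim61, had 2 and 5 reads in WT and 0 in both KO pools. On the other side, BC030870, 48.3 kb upstream of Apela, had 2 and 1 reads in WT and 16 and 11 in KO. Trim60 and Trim61 overlap, so their reads are not independent. The 3 genes were picked for these counts, which are given as values only.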
